A study of Mus musculus with 4 samples.

Results

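The genes described are the 5 Wnt ligands Wnt4, Wnt5a, Wnt7a, Wnt10a and Wnt16, which are members of a panel of 328 genes measured by Xenium in situ analysis in mouse tissue. All 5 were chosen by name, and all 5 were counted in every section from the decoded transcripts that reached a quality score of 20. Xenium locates single transcripts with gene-specific probes in 5 µm sections of formalin-fixed, paraffin-embedded tissue. The data came from 4 slides, which held female unwounded dorsal skin, male unwounded dorsal skin, buccal mucosa (the lining of the cheek) and male dorsal skin on day 4 after wounding.

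The skin came from mice with a TRE-Pitx1 and a Krt5-rtTA transgene (Tet-On), in which the Krt5 promoter drives the doxycycline-dependent activator in basal and outer follicle epithelium, so that doxycycline induces the oral transcription factor PITX1 in keratinocytes. Control mice were littermates with the same transgenes on normal chow (vehicle), and PITX1+ mice received doxycycline chow, so that PITX1 and doxycycline cannot be told apart. The buccal mucosa was Control, vehicle. No age was given. Each skin slide held both conditions under a single label, and sections were assigned to Control or PITX1+ skin by their position on the slide. This gave 3 Control sections (1 and 2 on the female slide, 3 on the male slide), 4 sections assigned to PITX1+ skin (1 and 2 female, 3 and 4 male), 7 buccal sections, 1 Control wound and 2 PITX1+ wounds. The labels do not tie sections to animals, so that p-values measure only the spread between sections, and each unwounded skin slide is also a sex.

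Wnt proteins are secreted, lipid-modified ligands that bind Frizzled receptors, either with an Lrp5 or Lrp6 co-receptor to stabilise β-catenin or through β-catenin-independent routes. In skin, canonical Wnt signals maintain interfollicular and follicular stem cells and start the growth phase of the hair cycle (anagen). Wnt4 and Wnt10a are epidermal ligands, Wnt10a is required for teeth, taste papillae and hair, Wnt5a is the classic β-catenin-independent ligand of mesenchyme and of the growing follicle, Wnt7a is an epithelial ligand, and Wnt16 is known from bone, joint and skin.

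A total of 426404 cells with at least 10 transcripts were kept, which is 82.8% of all cells, and the median of a section was 26 to 125 transcripts per kept cell. Cells were clustered without the Wnt and pathway genes and named from marker genes. Levels are given as CPM (counts scaled to a common total), the transcripts of a gene per 1000000 panel transcripts in the cells of a kind in a section, and as transcripts per 100 cells. Because probes differ in efficiency, levels were compared within a gene only. A lower level per section does not by itself separate fewer expressing cells from less RNA per cell. Cells holding a ligand were counted only in buccal epithelium. Pitx1 in keratinocyte-like cells was 58.9, 50 and 13.9 CPM in Control sections 1 to 3 and 1069 and 868 CPM in PITX1+ sections 3 and 4 on the male slide. In PITX1+ sections 1 and 2 on the female slide Pitx1 was only 42.0 and 78.8 CPM, so that Pitx1 does not separate the 2 conditions there, and values by slide are given below. Pitx1 was 737 to 1260 CPM in the buccal sections. In basal-like cells Pitx1 averaged 83.0 ± 43.7 CPM in PITX1+ (n = 4) and 45.6 ± 8.6 CPM in Control sections (n = 3). The fitted log2 difference was 0.70 (edgeR adjusted p = 0.419), so that Pitx1 does not separate the conditions in basal-like cells. In PITX1+ skin Pitx1 averaged 745 ± 729 CPM in other follicle-like, 614 ± 585 in anagen hair-like and 513 ± 510 in activated cells (SD, n = 4). These means join both slides, and their SDs were nearly as large as the means. Buccal section 3 held no keratinocyte-like cells and enters only the fibroblast-like comparisons. Basal-like cells came mostly from different clusters in each group, with 3847 Control and 1895 PITX1+ cells from a cluster of mixed markers. Its 10 leading genes against all cells held the upper-layer markers Krt77, Flg2 and Krt1 and the basal marker Col17a1, and against other keratinocytes 4 basal markers (Col17a1, Itga6, Trp63 and Krt5) and 4 of upper layers (Krt77, Flg2, Krt1 and Hrnr). Basal-like comparisons with Control are thus comparisons with this cluster, not with a purely basal layer. Another 4878 PITX1+ cells came from a cluster led by Fcgbp and the activation gene Stfa3, and 7895 buccal cells from a cluster led by Mt3 and Col17a1. Basal-like cells of the wounds came mostly from the Stfa3 cluster, with 582 cells in the Control wound and 2046 in the PITX1+ wounds.

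In immune-like cells, read here as a background, Wnt levels were higher on the female than on the male skin slide. Of these cells, 3298 in Control and 7817 in PITX1+ sections came from a cluster with a median of only 20 transcripts. Its leading genes mixed immune genes with Kcna1, Myh11, Mmrn1, Drp2 and Col1a1, so that the background is partly that of a mixed cluster. Wnt4 was 595 to 1472 CPM on the female and 63.2 to 168 CPM on the male slide, Wnt7a was 457 to 1084 against 4.54 to 21.7 CPM, and Wnt16 was 347 to 1050 against 31.8 to 59.6 CPM. Wnt5a was also higher in these cells, at 540 to 1234 against 237 to 345 CPM. Immune-like cells of the buccal slide had Wnt5a at 661 to 1640 CPM, Wnt4 at up to 547 CPM and Wnt16 at up to 920 CPM. Negative control probes averaged 32.6 to 58.4 CPM per probe in these cells on the female slide and 4.54 to 19.0 CPM on the male slide. Of the female slide's transcripts, 88.0% of Wnt7a and 84.0% of Wnt16 lay over a nucleus, where the median panel gene had 58.5%. For Wnt10a, Wnt4 and Wnt5a the shares were 78.7%, 68.6% and 61.3%, also above that median. The part of this signal in the differences below was not tested. In basal-like cells of the male skin slide the control probes averaged 45.4 to 83.2 CPM, and the highest single probe reached 769 to 1110 CPM.

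The cells that held the transcripts differed between ligands, although Wnt10a and Wnt16 were alike in buccal mucosa. For Wnt7a each kind overlapped the next in range over both unwounded skin slides together, as for Wnt4, Wnt10a and Wnt16. Wnt7a in other follicle-like cells of the male slide alone is given below. In buccal mucosa, 27.0% of Wnt4 transcripts lay in basal-like, 35.7% in suprabasal-like and 31.6% in cornifying-like keratinocytes, the lower, middle and upper layers of the epithelium, while 72.1% of Wnt10a and 56.4% of Wnt16 transcripts lay in basal-like cells, which were 12.8% of buccal cells. Fibroblast-like cells, 13.7% of the cells, held 31.5% of Wnt5a transcripts over all buccal sections together and 12.3 to 38.7% in single sections, where vascular-like cells held up to 39.8%. In PITX1+ skin, 45.7% of Wnt5a transcripts lay in anagen hair-like cells, which were 6.22% of the cells, with a range over sections of 28.5 to 60.9%. In Control skin basal-like cells, 9.38% of the cells, held 29.6% of Wnt4, 34.0% of Wnt10a and 31.8% of Wnt16 transcripts, and fibroblast-like cells held 32.0% of Wnt5a.

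**Figure D1:**
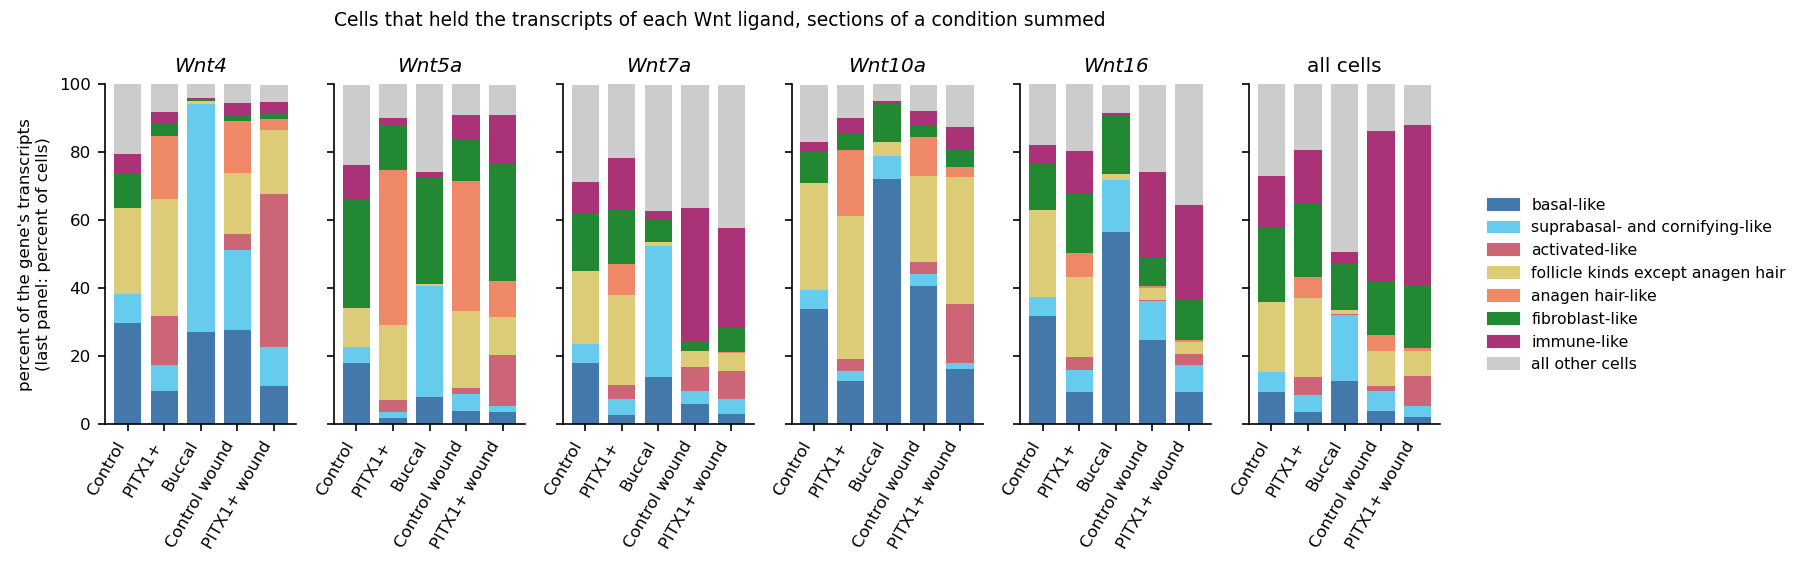
Stacked bars give the percentage of each ligand's transcripts found in each group of cell kinds, by condition, and the last panel gives the percentage of cells in the same groups. Buccal Wnt10a sat mainly in basal-like cells (72.1% of transcripts in 12.8% of cells). Anagen hair-like cells held 45.7% of PITX1+ Wnt5a transcripts in 6.22% of cells.

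**Figure D2:**
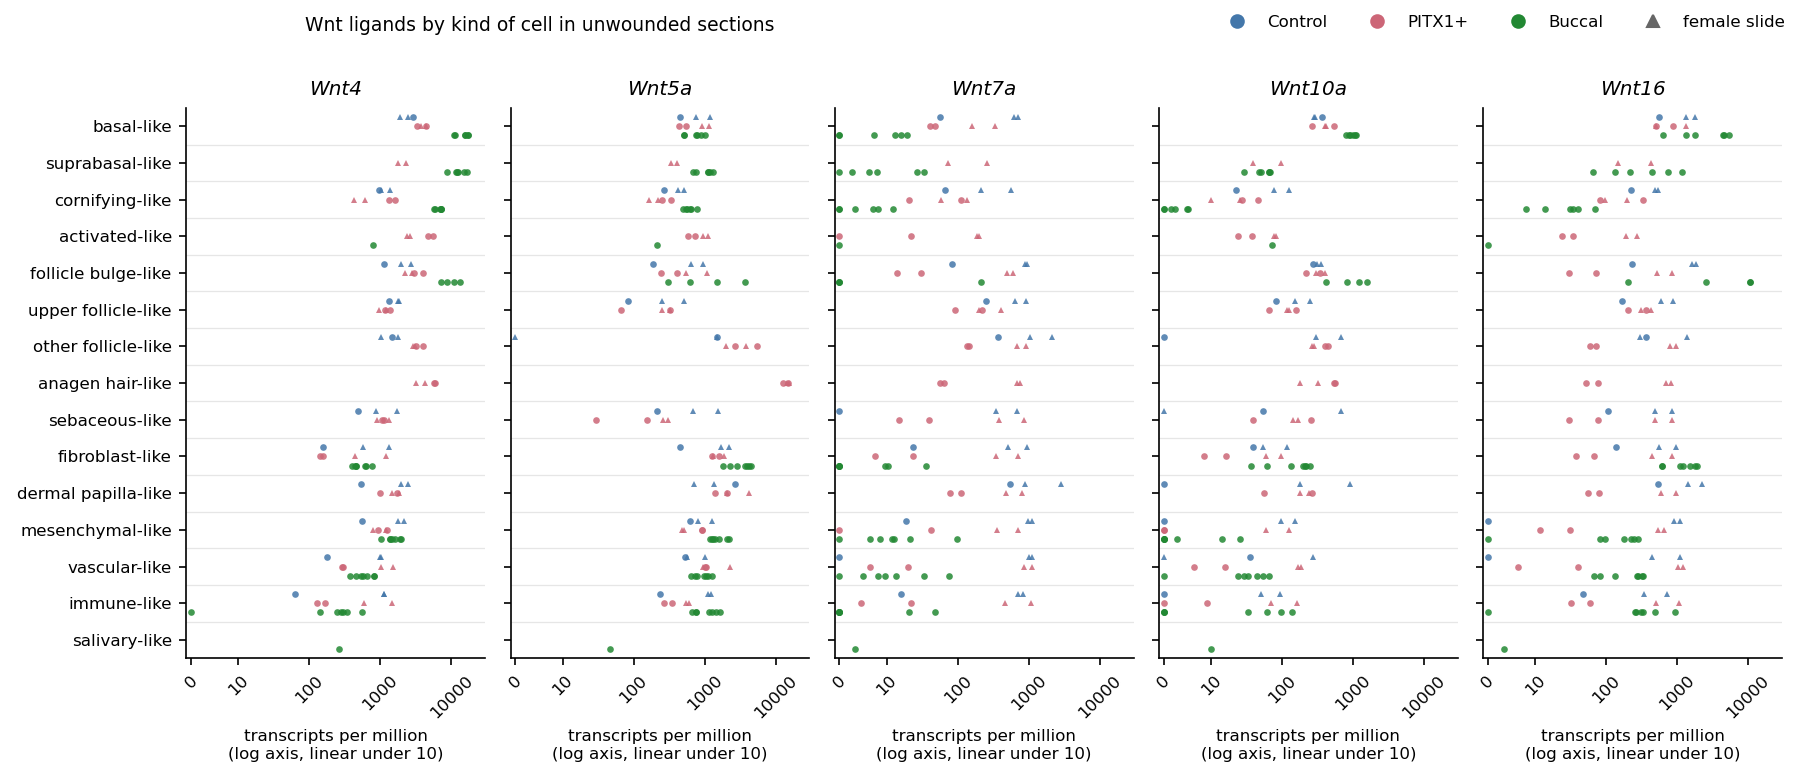
Each point is 1 unwounded section's level of a ligand in 1 cell kind, in CPM on an axis that is linear below 10 and logarithmic above, coloured by condition, with triangles for the female slide. Wnt4 was highest in the basal-like, suprabasal-like, bulge-like and cornifying-like cells of buccal mucosa, and Wnt5a in the anagen hair-like cells of PITX1+ skin.

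Wnt4 was the ligand with the largest fitted excess in buccal epithelium over Control skin. In basal-like cells Wnt4 was 2444, 1880 and 2886 CPM in Control sections 1 to 3, and 4416, 3698, 3243 and 4344 CPM in PITX1+ sections 1 to 4. In buccal sections 1, 2 and 4 to 7 it was 17047, 15546, 11418, 15322, 10884 and 17211 CPM. The lowest buccal section was above the highest skin section, and the lowest PITX1+ section was above the highest Control section. Means were 2403 ± 504 CPM (SD, n = 3), 3925 ± 558 (n = 4) and 14571 ± 2762 (n = 6). Per 100 cells, basal-like Wnt4 averaged 16.9 transcripts in Control, 37.1 in PITX1+ and 184 in buccal sections, so that the order of the means was the same on that scale. Per cell the ranges of Control and PITX1+ sections overlapped. In the fit of basal-like cells, buccal Wnt4 was above Control by 2.93 on the log2 scale (SE 0.30, edgeR adjusted p = 1.04e-05), where 66.1% of the 283 genes tested passed the threshold of 0.05. Against PITX1+ it was above by 1.99 (SE 0.28, edgeR adjusted p = 0.000135), where 53.8% of 273 genes passed. Tissue and slide cannot be told apart in these comparisons, which share the buccal sections.

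**Figure D3:**
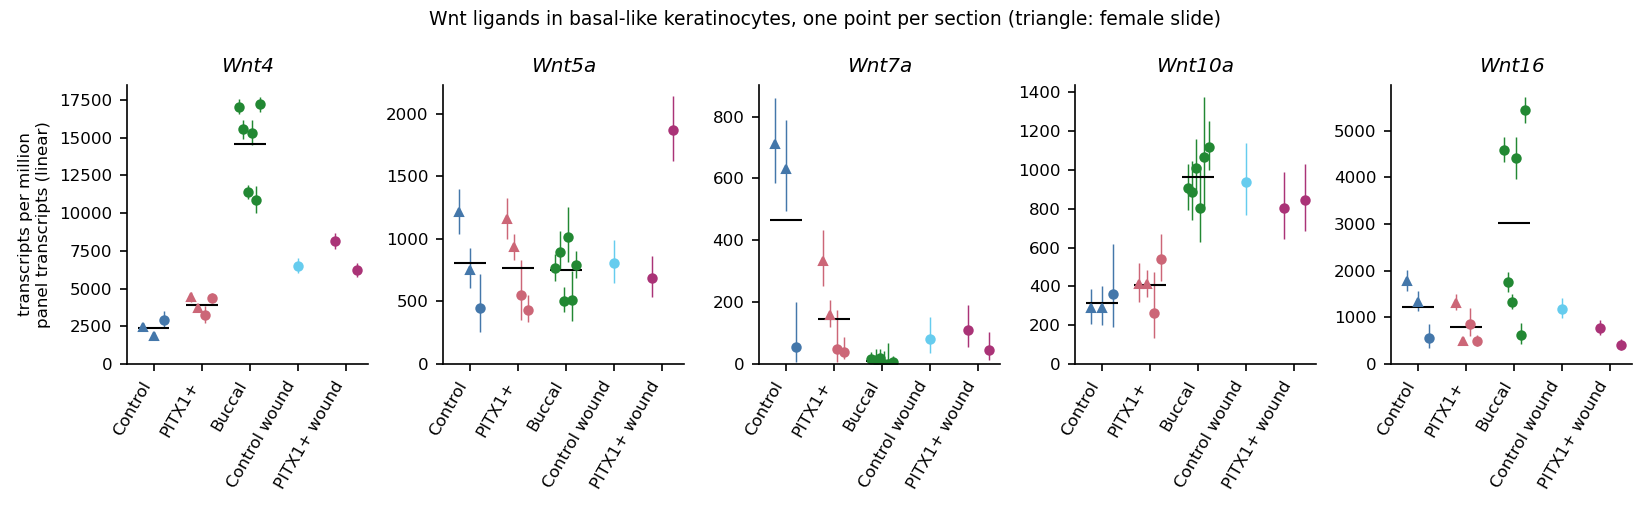
Points give the level of each ligand in basal-like cells of every section in CPM on a linear axis, with 95% Poisson intervals of the counts, triangles for the female slide and a black line for the mean of Control, PITX1+ and buccal sections. The 6 buccal sections lay above all unwounded skin sections for Wnt4 (10884 CPM and above) and for Wnt10a (806 CPM and above, against at most 541 CPM). Wnt10a of the wounds overlapped the buccal sections.

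The increase of Wnt4 in PITX1+ basal-like cells did not pass the test. The fitted difference from Control was 0.75 (SE 0.29, edgeR adjusted p = 0.167), although all 4 PITX1+ sections were above all 3 Control sections. The share of genes called was 2.20% of the 318 tested, and none of the 5 ligands was among them, with 2 of 5 at an unadjusted p under 0.05, beside 26.4% of all genes. DESeq2 called Wnt4 higher and Wnt7a lower, beside 20.4% of all genes. The female slide alone gave 1.24 (edgeR adjusted p = 0.021), and the male slide alone gave 0.30 against its single Control section. Without Control section 3 the value was 1.22 (edgeR adjusted p = 0.0242). Over all keratinocyte-like cells, follicle included, Wnt4 was 2232, 1704 and 1532 CPM in Control and 2011, 2326, 4182 and 3767 CPM in PITX1+ sections. Here the groups overlapped on the female slide and not on the male slide, and the fitted difference was 0.68 (SE 0.22, edgeR adjusted p = 0.0527). The female slide alone gave 0.54 (edgeR adjusted p = 0.133), and the male slide alone gave 1.25 against its single Control section. The difference between the slides themselves was 0.55 and did not pass (edgeR adjusted p = 0.405).

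Within the buccal epithelium Wnt4 was present through all layers. It was 8667 to 16550 CPM in suprabasal-like cells (median 12313, n = 6) and 5696 to 7213 CPM in cornifying-like cells (median 7048). All 6 cornifying-like values were below all 6 basal-like values. Per 100 cells the order was the opposite, at 184 in basal-like, 282 in suprabasal-like and 338 in cornifying-like cells, since the upper cells held more transcripts of all genes. Whether Wnt4 rose or fell with height therefore depended on the scale: the fitted suprabasal-like difference from basal-like was 0.49 with TMM factors (SE 0.11, edgeR adjusted p = 0.00099) and -0.20 with library sizes alone (edgeR adjusted p = 0.0608), and the cornifying-like difference was 0.88 (SE 0.21, edgeR adjusted p = 0.000351) and -1.11 (edgeR adjusted p = 3.1e-06). Both calls were also lost with any quality score (0.16 and 0.12) and over the nucleus only (0.07 and -0.24). In these fits 81.4% of 269 genes and 79.7% of 276 genes passed the threshold, with 108 higher and 111 lower, and 96 higher and 124 lower. With library sizes the splits were 69 higher and 154 lower, and 59 higher and 200 lower.

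In skin, cornifying-like cells held less Wnt4 than basal-like cells as clustered here. Cornifying-like Wnt4 was 1375, 1014 and 955 CPM in Control and 604, 425, 1601 and 1317 CPM in PITX1+ sections, each below the basal-like value of its own section. The fitted difference over all 7 sections was -1.002 (SE 0.22, edgeR adjusted p = 0.00413), where 44.0% of 323 genes passed, and it was -0.70 in Control sections only (edgeR adjusted p = 0.00659) and -1.16 in PITX1+ sections only (edgeR adjusted p = 0.0308). With 30 clusters the difference was -0.10 and the call was lost (edgeR adjusted p = 0.817). Suprabasal-like cells reached 50 cells in PITX1+ sections 1 and 2 only, with Wnt4 at 2265 and 1774 CPM. There the difference from basal-like cells was -0.27 (edgeR adjusted p = 0.551), but -1.01 and called with library sizes (edgeR adjusted p = 0.0429), and 49.1% of 316 genes passed. That fit left 1 residual degree of freedom.

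Among the other kinds in PITX1+ skin, Wnt4 followed the order anagen hair-like (4760 ± 1285 CPM), basal-like, activated (3808 ± 1594), other follicle-like (3273 ± 497) and bulge-like cells (2998 ± 736), each overlapping the next in range over 4 sections. Activated keratinocytes, whose markers include the stress keratins Krt6a and Krt16, had 2339 and 2590 CPM on the female slide and 5582 and 4720 CPM on the male slide. In PITX1+ skin 7725 of these cells came from a cluster that was also led by the follicle markers Krt79, Plet1, Sox9 and Krt75. With 30 clusters, a cluster led by the same follicle markers, Krt16 and Krt6a was named other follicle. The fits without follicle kinds given below kept the activated cells. In Control skin the order was basal-like, bulge-like (1915 ± 793 CPM, n = 3), dermal papilla-like (1657 ± 998) and upper follicle-like cells (1649 ± 287), again with overlap. Fibroblast-like cells were last in both, and in buccal sections fibroblast-like Wnt4 was 397 to 750 CPM. The fitted difference of buccal fibroblast-like from basal-like cells was -5.22 (SE 0.17, edgeR adjusted p = 4.12e-11), and 88.6% of 280 genes passed in that fit.

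Wnt10a, a ligand of ectodermal organs, was a basal ligand in buccal mucosa. In basal-like cells it was 907, 885, 1013, 806, 1066 and 1120 CPM in the 6 buccal sections with epithelium. Control sections had 286, 290 and 361 CPM, and PITX1+ sections had 411, 413, 264 and 541 CPM. Every buccal section was above every skin section, and Control and PITX1+ overlapped. The fitted basal-like difference was 1.99 from Control (SE 0.24, edgeR adjusted p = 4.29e-05) and 1.31 from PITX1+ (SE 0.28, edgeR adjusted p = 0.00206). Without the female slide the first was 1.40, against the single male Control section, and the second was 1.17 (edgeR adjusted p = 0.00996). PITX1+ against Control was 0.48 (edgeR adjusted p = 0.419). In the immune-like cells Wnt10a was 0 to 9.08 CPM on the male skin slide and 50.9 to 162 CPM on the female slide. The basal-like skin values of the male slide stood above the mean of the control probes and below the highest single control probe.

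In buccal mucosa Wnt10a was nearly lost above the basal layer. In suprabasal-like cells it was 51.4, 29.7, 67.6, 47.7, 65.8 and 66.7 CPM, and in cornifying-like cells at most 5.23 CPM, with 0 transcripts in sections 5 and 6. The fitted differences from basal-like cells were -3.43 (SE 0.19, edgeR adjusted p = 1.94e-10) and -6.19 (SE 0.40, edgeR adjusted p = 8.83e-16), and they were -4.16 and -8.17 with library sizes. Skin cornifying-like cells had 126, 78.0 and 22.2 CPM in Control and 25.6, 10.0, 46.5 and 27.6 CPM in PITX1+ sections. Their fitted difference from basal-like cells was -2.47 (SE 0.40, edgeR adjusted p = 0.000881). In PITX1+ sections 1 and 2 suprabasal-like Wnt10a was 96.7 and 39.5 CPM, lower than basal-like cells by a log2 difference of -2.03 (SE 0.38, edgeR adjusted p = 1.17e-06). The fit behind this p-value had 2 sections and left 1 residual degree of freedom. Over all keratinocyte-like cells, which mix the layers, mean Wnt10a was 236 ± 36.8 CPM in Control, 247 ± 107 in PITX1+ and 223 ± 72.8 in buccal sections, and the groups overlapped. The fitted buccal difference from Control was 1.26 (SE 0.30, edgeR adjusted p = 0.00343) with TMM factors and -0.09 with library sizes.

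Wnt16 shared the basal position of Wnt10a but varied widely between buccal sections. In basal-like cells it was 4586, 1757, 1334, 4403, 625.1 and 5432 CPM in buccal sections 1, 2 and 4 to 7. In Control it was 1778, 1334 and 555 CPM, and in PITX1+ sections 1314, 498, 865 and 501 CPM. Buccal section 6 was below 2 of the 3 Control sections. The skin values of the male slide (555, 865 and 501 CPM) lay within or below the range given above for the highest single control probe in those cells. The fitted difference of buccal basal-like cells was 1.67 from Control (SE 0.68, edgeR adjusted p = 0.0485) and 2.09 from PITX1+ (SE 0.64, edgeR adjusted p = 0.0166). The first of these passed by a small margin and was lost with library sizes (1.28, edgeR adjusted p = 0.0989) and without the female slide (2.44, edgeR adjusted p = 0.157), and likewise without any 1 of the 3 Control sections (1.60 to 1.90) and without any 1 of buccal sections 1, 2, 5 and 7 (1.33 to 1.76). It was also lost over the nucleus only (0.94, edgeR adjusted p = 0.244), over cells with at least 20 transcripts, and with 30 or 60 clusters. The second was 2.24 without the female slide (edgeR adjusted p = 0.0367).

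Upper layers held less Wnt16. Buccal suprabasal-like cells had 741, 214, 132, 449, 65.8 and 1169 CPM and cornifying-like cells 8.08 to 69.5 CPM, each lower than the basal-like value of the same section. The fitted differences were -2.12 (SE 0.18, edgeR adjusted p = 2.34e-08) and -4.59 (SE 0.27, edgeR adjusted p = 1.2e-16). In skin, cornifying-like cells were below basal-like cells by a log2 difference of -1.19 (SE 0.24, edgeR adjusted p = 0.00295), and suprabasal-like cells of PITX1+ sections 1 and 2 by -0.96 (SE 0.36, edgeR adjusted p = 0.0162). The second of these fits left 1 residual degree of freedom. With 30 clusters the first was -0.04 (edgeR adjusted p = 0.919), and the second lost its call with DESeq2 (-0.77), with 60 clusters (-0.39) and with no section block (-0.99). Wnt16 had a stromal share too, with buccal fibroblast-like cells at 613 to 1935 CPM, a log2 difference of -1.42 from basal-like cells (SE 0.24, edgeR adjusted p = 0.000107). Immune-like cells, the background, had 0 to 920 CPM over the buccal sections and overlapped that range. The part of this background in the fibroblast-like values was not tested.

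Over all keratinocyte-like cells Wnt16 was lower in sections assigned to PITX1+ skin. It was 1440, 1185 and 306 CPM in Control, 468 and 415 CPM in PITX1+ sections on the female slide, and 96.5 and 116 CPM in those on the male slide. Within each slide the PITX1+ sections were below the Control sections. The fitted difference was -1.49 (SE 0.25, edgeR adjusted p = 0.0104), in a comparison where 32.9% of 328 genes were called and 2 of the 5 ligands passed, 1 higher and 1 lower. DESeq2 called 4 of 5, Wnt4 and Wnt5a higher and Wnt7a and Wnt16 lower, beside 56.7% of all genes, and 4 of 5 had an unadjusted p under 0.05 by edgeR, beside 47.6%. The Wnt16 difference was -1.17 on the female slide alone (edgeR adjusted p = 0.00841) and -1.65 on the male slide alone, against its single Control section. Leaving the follicle kinds out gave -1.15 (edgeR adjusted p = 0.0611). Without the slide in the model the adjusted p from edgeR was 0.207. Basal-like cells gave -0.40 and did not pass. On the female slide immune-like cells held Wnt16 at 347 to 1050 CPM, and the part of that signal in the difference was not tested.

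Wnt5a was a follicle ligand in PITX1+ skin. In anagen hair-like cells, which carried Shh, Dsg4 and Krtap17-1, Wnt5a was 15682, 14619, 12599 and 14770 CPM in PITX1+ sections 1 to 4. This was 99.1, 99.5, 130 and 179 transcripts per 100 cells. Basal-like Wnt5a of the same sections was 1155, 934, 553 and 434 CPM, and the fitted difference between the kinds was 4.00 on the log2 scale (SE 0.49, edgeR adjusted p = 0.000757), where 32.4% of 327 genes passed. Other follicle-like cells, with Lhx2 among their leading genes, had 2028, 3806, 2658 and 5418 CPM. The other 4 ligands did not pass in anagen hair-like against basal-like cells, with edgeR log2 differences of -0.07 for Wnt4, 0.76 for Wnt7a, -0.47 for Wnt10a and -2.03 for Wnt16. DESeq2 called the last of these lower (-1.90, DESeq2 adjusted p = 0.00893).

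Over all keratinocyte-like cells Wnt5a was higher in PITX1+ than in Control sections. It was 926, 615 and 292 CPM in Control and 1262, 2920, 3489 and 4489 CPM in PITX1+ sections, and the groups did not overlap. The fitted difference was 2.34 (SE 0.49, edgeR adjusted p = 0.0155), at 1.84 on the female slide (edgeR adjusted p = 0.00644) and 3.65 on the male slide. PITX1+ sections held 1164, 5826, 3443 and 1922 anagen hair-like cells, and Control sections at most 2. Leaving out the follicle kinds gave 0.38 (edgeR adjusted p = 0.382), and basal-like cells gave 0.17. The call was also lost without Control section 2 (edgeR adjusted p = 0.0566) and without PITX1+ section 2 (edgeR adjusted p = 0.0826). The difference between the slides was 1.64 and did not pass (edgeR adjusted p = 0.237), where 4.57% of 328 genes passed and none of the 5 ligands did, also at an unadjusted p under 0.05 (22.3% of all genes) and by DESeq2 (12.2%).

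In buccal epithelium Wnt5a was spread over the layers at levels within or below the range of 661 to 1640 CPM that immune-like cells covered over the sections of the same slide. Basal-like cells had 765, 898, 506, 1016, 515 and 791 CPM, suprabasal-like cells 1122, 768, 682, 1294, 1202 and 1121 CPM, and cornifying-like cells 498 to 793 CPM. Suprabasal-like Wnt5a was above basal-like Wnt5a in 5 of 6 sections, with a fitted difference of 1.14 (SE 0.14, edgeR adjusted p = 2.38e-06) that was 0.42 with library sizes (edgeR adjusted p = 0.0147). The cornifying-like difference was 1.73 with TMM factors (SE 0.20, edgeR adjusted p = 1.16e-09) and -0.29 with library sizes (edgeR adjusted p = 0.105). Skin cornifying-like cells were below basal-like cells by a log2 difference of -0.59 (SE 0.19, edgeR adjusted p = 0.0314). This call was lost in 9 of 18 alternatives, DESeq2 among them (-0.39, DESeq2 adjusted p = 0.0937) and each condition alone, and the value was 0.29 with 30 clusters. It was lost too without Control section 1 (-0.53), PITX1+ section 1 (-0.49) or PITX1+ section 4 (-0.58). Basal-like Wnt5a averaged 803 ± 386 CPM in Control, 769 ± 334 in PITX1+ and 748 ± 205 in buccal sections, with no call between them.

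Stromal Wnt5a was highest in buccal fibroblast-like cells. It was 4455, 4218, 1804, 3658, 2902, 2287 and 3933 CPM in buccal sections 1 to 7, 2201, 1726 and 451 CPM in Control, and 1311, 1870, 1282 and 1611 CPM in PITX1+ sections. Buccal section 3 overlapped the skin values, and all other buccal sections lay above them. The largest clusters of fibroblast-like cells differed between the groups, with 7179 buccal cells from a cluster led by Angptl1 and Abca8a that held 281 Control and 952 PITX1+ cells. Control cells came mostly from clusters led by Col1a1 and Fgfr4 (3987) and by Pi16 and Igfbp6 (2563). PITX1+ cells were spread over more clusters, the largest led by Col1a1 and Fn1 (12775), by Cdh11 and Cyp26b1 (8072) and by Efemp1 and Lum (6978). The fitted buccal difference from Control was 0.99 (SE 0.45, edgeR adjusted p = 0.0993, unadjusted p = 0.0459), where 33.6% of 292 genes were called and none of the 4 ligands tested passed, with 1 of 4 at an unadjusted p under 0.05, beside 47.3% of all genes. DESeq2 called 1, Wnt7a, lower, beside 47.6% of all genes. Without the female slide the Wnt5a difference was 2.33 (edgeR adjusted p = 0.0304), against the single male Control section. Within buccal sections fibroblast-like Wnt5a was above basal-like Wnt5a by 1.83 (SE 0.21, edgeR adjusted p = 2.29e-06). In fibroblast-like cells of PITX1+ against Control skin the difference was 0.27 (edgeR adjusted p = 0.767), where 5.79% of 328 genes were called and no ligand was, also at an unadjusted p under 0.05 (23.8% of all genes) and by DESeq2 (14.3%). The male slide alone gave 1.37 against its single Control section, and the female slide alone -0.38 (edgeR adjusted p = 0.732).

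Among kinds with at least 50 cells, Wnt7a carried most of its unwounded skin counts on the female slide, with 692 and 318 transcripts in Control sections 1 and 2 against 20 in Control section 3, and 1929 and 2078 in PITX1+ sections 1 and 2 against 165 and 106 in PITX1+ sections 3 and 4. In basal-like cells it was 712, 630 and 55.5 CPM in Control and 334, 160, 48.0 and 40.1 CPM in PITX1+ sections, the last value of Control and the last 2 of PITX1+ being those of the male slide. In buccal basal-like cells it was 15.8, 13.2, 19.5, 0, 0 and 7.32 CPM. The female-slide sections were the high ones in both conditions, and their immune-like cells had 457 to 1084 CPM. All kept buccal cells together held 86 Wnt7a transcripts, against 1030 in Control and 4279 in PITX1+ sections. Over all keratinocyte-like cells the buccal difference was -4.39 from Control (SE 0.68, edgeR adjusted p = 0.000211) and -3.49 from PITX1+ (SE 0.74, edgeR adjusted p = 0.00156), and without the female slide the first was -2.40 (edgeR adjusted p = 0.0621). On the buccal slide 29.0% of decoded Wnt7a transcripts reached the quality score of 20, against 72.4% for the median panel gene. PITX1+ against Control gave -0.72 and did not pass (edgeR adjusted p = 0.0582). On the male slide other follicle-like cells of PITX1+ sections 3 and 4 held 73 and 60 Wnt7a transcripts, or 144 and 133 CPM, where the highest control probe reached 21.7 and 2.22 CPM.

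Over all keratinocyte-like cells, follicle included, 3 of 5 ligands were higher in buccal than in Control sections (Wnt4 by 3.84, Wnt5a by 1.75 and Wnt10a by 1.26 on the log2 scale) and Wnt7a was lower, where 69.0% of the 323 genes tested were called. Against PITX1+ sections Wnt4 (2.86), Wnt10a (0.95) and Wnt16 (2.55) were higher and Wnt5a (-0.85) and Wnt7a were lower, where 59.9% of 324 genes were called. The Wnt5a call against PITX1+ was lost in 8 of 20 alternatives, with DESeq2 (-0.71) and without any 1 of PITX1+ sections 2, 3 and 4 or buccal sections 1, 4, 6 and 7 (-0.89 to -0.67), and it reversed in 1. The Wnt10a call was lost in 7, without any 1 of PITX1+ sections 1, 2 and 3 or buccal sections 4, 6 and 7 (0.65 to 0.94) and without the female slide (0.40), and it reversed in 1. These shares of all genes are large, so that a count of members near them is no result about the ligands. The scaling moved the median of the ligands and pathway genes by 1.34 in the first and 1.11 in the second of these comparisons. In the first, 46.2% of all called genes were higher with TMM factors against 20.6% with library sizes. In the second these shares were 38.1% against 16.1%. Wnt4 stayed higher with library sizes in both (2.45 and 1.70), whereas Wnt5a in the first was 0.30 (edgeR adjusted p = 0.465) and Wnt10a was not called in either. The Wnt16 call against PITX1+ was lost with library sizes too (1.46, edgeR adjusted p = 0.0721). Leaving out the follicle kinds turned the Wnt5a difference from PITX1+ sections to 1.09 (edgeR adjusted p = 0.00677).

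The layers were also measured without layer markers, by the distance from each buccal keratinocyte-like cell to the nearest fibroblast-like, vascular-like, immune-like or mesenchymal-like cell. Cells holding Wnt10a lay at a mean of 15.5 ± 2.1 µm and cells holding Wnt16 at 16.7 ± 2.1 µm (SD, n = 6 sections). Cells holding Wnt4 lay at 28.5 ± 1.3 µm and cells holding Wnt5a at 33.9 ± 3.3 µm, while all keratinocyte-like cells lay at 28.7 ± 1.6 µm. Wnt10a and Wnt16 cells were nearest the stroma. Wnt4 was held by most cells (779 to 3670 of 1306 to 4818 per section), so that its mean over cells has to lie near that of all cells. Averaged over transcripts, Wnt4 lay at 28.6 to 34.9 µm, nearer the stroma than the transcripts of all panel genes (33.1 to 43.4 µm) in 6 of 6 sections. Wnt5a transcripts, at 28.3 to 40.4 µm, were also nearer than all panel transcripts in 6 of 6 sections, although Wnt5a cells lay farther than all cells on average. Of 6 pairs of ligands, 5 differed in the same direction in 6 of 6 sections, with an exact permutation p = 0.03125, the smallest that 6 sections allow, and an adjusted p = 0.0375. The differences were 13.04 ± 2.5 µm between Wnt4 and Wnt10a, 11.8 ± 2.2 µm between Wnt4 and Wnt16, 18.4 ± 5.0 µm between Wnt5a and Wnt10a and 17.2 ± 4.5 µm between Wnt5a and Wnt16. Wnt4 minus Wnt5a was -5.36 ± 3.13 µm, and over transcripts Wnt4 was nearer in 5 of 6 sections. With the nearest fibroblast-like cell alone the difference over cells was -4.78 µm with an exact permutation p = 0.0625. Wnt10a and Wnt16 differed by -1.25 ± 1.24 µm (exact permutation p = 0.09375, two-sided like the others). Wnt7a was held by at most 16 cells in a section and was left out.

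In bins of 20 µm from the stroma, Wnt10a fell from 740 to 116, 12.6 and 1.07 CPM over the first 4 bins, and Wnt16 from 2409 to 480, 88.1 and 28.4 CPM. Wnt4 went from 13664 to 11696, 7950 and 4769 CPM, and Wnt5a from 891 to 877, 639 and 452 CPM. Per 100 cells Wnt4 went from 182 to 293, 378 and 279 transcripts and Wnt5a from 11.7 to 21.7, 30.8 and 26.8. Wnt10a and Wnt16 were highest in the bin next to the stroma, whereas Wnt4 and Wnt5a per cell were highest in the bin from 40 µm among these 4.

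**Figure D4:**
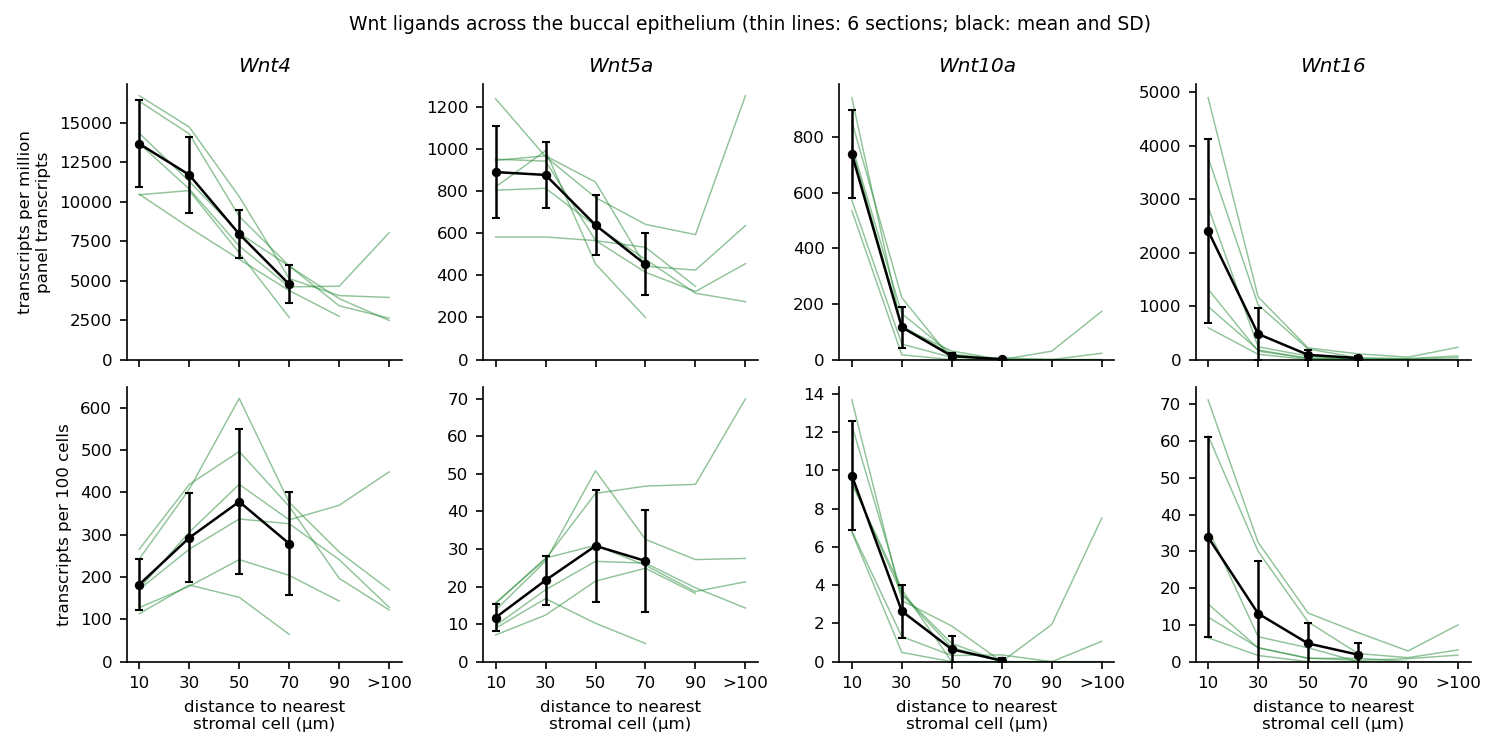
Level against distance to the nearest stromal cell (µm, 20 µm bins at their midpoints) in buccal keratinocyte-like cells, in CPM above and in transcripts per 100 cells below. Thin lines are the 6 sections, and black points with bars are the mean ± SD where all 6 sections have the bin. Wnt10a fell from 740 CPM in the first bin to 12.6 CPM in the third, whereas Wnt4 kept 7950 CPM there.

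A further 10 genes of the pathway were read beside the ligands, with the Frizzled receptors Fzd1, Fzd3 and Fzd5, the co-receptor Lrp6, the R-spondin receptors Lgr5 and Lgr6, which mark follicle stem cells, the secreted inhibitors Dkk2, Wif1 and Sostdc1, and the target Ccn4. In keratinocyte-like cells, follicle included, 0 of 10 were higher and 6 of 10 lower in buccal than in Control sections, where 69.0% of all genes were called. Their median log2 difference was -1.54 beside -0.21 for all genes. The 6 were Lgr5 (-5.81), Lgr6 (-2.16), Dkk2 (-1.29), Wif1 (-1.82), Sostdc1 (-1.80) and Ccn4 (-2.41). With transcripts of any quality score Dkk2 was 0.17, and without the female slide Ccn4 was 0.02242. The calls of Dkk2 and Wif1 were each lost in 2 of 19 alternatives, that of Sostdc1 in 1 of 19 and that of Ccn4 in 3 of 18. Against PITX1+ sections 9 of 10 were lower, all but Fzd3, with a median of -1.51 beside -0.46 and 59.9% of all genes called, and Dkk2 was 0.18 with any quality score. The calls of Fzd5 and Dkk2 were each lost in 8 of 20 alternatives, that of Fzd1 in 3, and those of Lgr6 and Wif1 in 1 each. Values of Wif1 ranged from -3.68 to -0.27. In PITX1+ against Control keratinocyte-like cells 1 of 10 passed beside 32.9% of all genes, Lgr5 at 0.74 (edgeR adjusted p = 0.0491). The Lgr5 call was lost in 15 of 19 alternatives, among them without any 1 Control section, without PITX1+ section 2, 3 or 4 and without the follicle kinds (0.13). In fibroblast-like cells Wif1 (1.95) and Ccn4 (1.52) were higher, beside 5.79% of all genes called. Each of these calls was lost in 6 of 18 alternatives, both without the slide covariate and without Control section 1 or PITX1+ section 2, Wif1 also without Control section 3, and Ccn4 also without PITX1+ section 1 or 3.

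In basal-like cells 1 of 10 was higher (Fzd1, 1.19) and 3 were lower (Lgr5, Lgr6 and Ccn4) in buccal against Control, where 66.1% of all genes were called. The secreted inhibitors, lower over all keratinocyte-like cells, were not called there, with Dkk2 at -0.12, Wif1 at 0.60 and Sostdc1 at 0.40. The calls of Fzd1, Lgr6 and Ccn4 were lost in 12 of 18, 9 of 18 and 8 of 12 alternatives. The direction also turned, for Fzd1 to -1.57 with 30 clusters (edgeR adjusted p = 0.0257) and -0.14 without the female slide, and for Ccn4 to 4.495 without the female slide (edgeR adjusted p = 0.625). Of 8 tested, 1 was lower against PITX1+ (Sostdc1, -1.77, with 53.8% of all genes called), and Dkk2 (0.28) and Wif1 (1.11) were not called. None was called by edgeR in PITX1+ against Control (2.20%). Within buccal epithelium 4 of 9 were lower in suprabasal-like than in basal-like cells, Lgr6 (-3.93), Dkk2 (-2.48), Wif1 (-3.27) and Sostdc1 (-2.60), and Fzd3 was higher (0.56, but -0.15 with library sizes, and not called in 7 of 15 alternatives), where 81.4% of all genes were called. In cornifying-like cells 6 of 9 were lower and none higher, where 79.7% were called. In skin, Lgr6 and Sostdc1 were lower in cornifying-like cells (-2.49 and -1.63) and Fzd5 was higher (0.89, a call lost in 4 of 18 alternatives), where 44.0% of all genes were called. The first 2 were lower in suprabasal-like cells too (-2.59 and -1.72), where 49.1% were called in a fit with 1 residual degree of freedom. Anagen hair-like cells of PITX1+ skin, where Wnt5a was highest, had 6 of 10 higher than basal-like cells, where 53 of all 327 genes were higher and 32.4% were called in either direction. The 6 were Fzd1 (2.51), Fzd3 (1.57), Fzd5 (1.87), Lrp6 (1.01), Lgr5 (2.58, but -2.51 with 30 clusters) and Wif1 (2.72), and Sostdc1 lower (-2.48), with a median of 1.29 beside -0.12 for all genes. The calls of Fzd3, Lrp6 and Lgr5 were lost in 8, 7 and 6 of 13 alternatives, that of Wif1 in 3, and those of Fzd1, Fzd5 and Sostdc1 in 1 each. Buccal fibroblast-like cells had Lgr5 (4.99), Dkk2 (3.76), Wif1 (1.70) and Lrp6 (0.73) above basal-like cells, and Fzd5 (-3.54), Sostdc1 (-3.02) and Lgr6 (-2.59) below. These are 4 and 3 of 9 tested, where 88.6% of all genes were called. Buccal fibroblast-like cells against those of Control had 1 of 10 higher (Dkk2, 1.49, a call lost in 9 of 19 alternatives) and 2 lower (Fzd5, -2.36, and Lgr6, -1.88), beside 33.6% of all genes called.

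Across 153 pairs of unwounded section and cell kind, from 14 sections that share slides and depth, the panel genes whose CPM was most like that of each ligand by Spearman's rho were named as a description. For Wnt4 they were the desmosomal genes Dsg3 (0.75) and Dsc2 (0.68) and the transcription factor Grhl3 (0.68). For Wnt5a they were Bmp4 (0.63), Fgf2 (0.57) and Pdgfra (0.55). Wnt10a was most like the hemidesmosomal collagen gene Col17a1 (0.69), P-cadherin Cdh3 (0.68) and the mitotic gene Cenpf (0.68), and Wnt16 most like Ptprz1 (0.69), and also like Tnc (0.62). Wnt7a was most like Wfdc3 (0.78), Shh (0.76) and Epha5 (0.74). Between Wnt10a and Wnt16 rho was 0.61, and Wnt4 and Wnt5a had a rho of 0.05.

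In day 4 wounds Wnt4 and Wnt10a of basal-like cells lay above the unwounded male skin, whose Control basal-like cells came mostly from another cluster than those of the wounds. With 1 Control wound and 2 PITX1+ wounds no test was made, and the 95% intervals are exact Poisson intervals that cover counting error only. Wounding and slide cannot be told apart. Basal-like Wnt4 was 6520 CPM (6057 to 7009) in the Control wound and 8136 (7610 to 8688) and 6219 CPM (5766 to 6697) in the PITX1+ wounds. The unwounded male sections had 2886 (2358 to 3497) in Control and 3243 (2719 to 3839) and 4344 CPM (4017 to 4691) in PITX1+ skin, all lower. Basal-like Wnt10a was 940 CPM (770 to 1137) in the Control wound and 804 (645 to 991) and 845 CPM (684 to 1033) in the PITX1+ wounds, against 264 to 541 CPM in unwounded male skin. The intervals of Wnt10a in the 3 wounds overlapped each other. Negative control probes averaged 21.7 to 53.5 CPM in the same cells. Over the whole wounded slide a single probe of 20 held 3654 of the 5083 control probe reads, so that the highest probe lay far above such a mean.

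Activated keratinocytes were the largest holder of Wnt4 in PITX1+ wounds, with 45.1% of its transcripts in 8.82% of the cells, whereas in the Control wound basal-like cells were the largest holder with 27.7%. Activated Wnt4 was 2880 CPM (2391 to 3438) in the Control wound and 5230 (5054 to 5410) and 3388 CPM (3270 to 3509) in the PITX1+ wounds, beside 5582 and 4720 CPM in unwounded PITX1+ male sections. The Control wound had 254 such cells and the PITX1+ wounds 3747 and 5523. They lay in different proportions in 2 clusters, with 5421 cells of PITX1+ wounds and 2608 of PITX1+ sections in one led by Aldh1a3 and Sprr2d, and 3849 and 7725 in one led by Areg. Cornifying-like Wnt4 was 986 to 1085 CPM in the 3 wounds and 955 to 1601 CPM in the unwounded male sections.

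**Figure D5:**
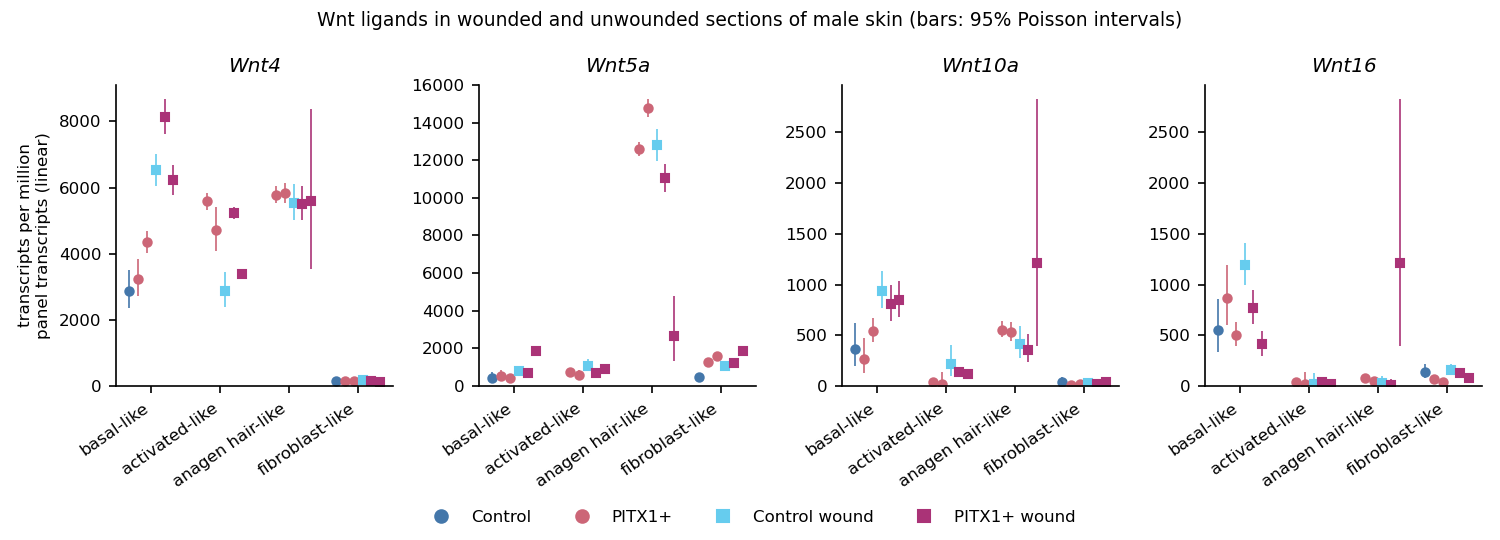
Levels of Wnt4, Wnt5a, Wnt10a and Wnt16 in basal-like, activated, anagen hair-like and fibroblast-like cells of the male unwounded and wounded sections, in CPM with 95% Poisson intervals of the counts. Basal-like Wnt4 was 6219 CPM and above in the 3 wounds and at most 4344 CPM in the 3 unwounded sections.

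The other ligands varied between the wounds themselves. Wnt5a in anagen hair-like cells was 12789 CPM (11979 to 13639) in the Control wound, from 887 cells, and 11031 CPM (10313 to 11785) in PITX1+ wound 1, from 740 cells. PITX1+ wound 2 held 64 such cells with 2669 CPM (1333 to 4776), from 11 transcripts. The Control wound thus held anagen hair-like cells with a Wnt5a level near that of PITX1+ skin, whereas unwounded Control sections held almost none of these cells. Basal-like Wnt5a was 807 (650 to 991), 686 (539 to 859) and 1868 CPM (1624 to 2139) in the Control wound and PITX1+ wounds 1 and 2, so that 1 PITX1+ wound stood apart. Wnt5a in fibroblast-like cells was 1067, 1220 and 1869 CPM in these wounds, and such cells held 34.7% of Wnt5a in PITX1+ wounds. Basal-like Wnt16 was 1189 CPM (996 to 1408) in the Control wound and 768 (612 to 951) and 409 CPM (300 to 546) in the PITX1+ wounds, whereas unwounded male sections ranged from 501 to 865 CPM. Basal-like Wnt7a rested on 5 to 12 transcripts per wound and was 44.5 to 110 CPM, beside a control probe mean of 21.7 to 53.5 CPM.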

How the data were processed

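Xenium output of 4 slides was used. The authors deposited a table of decoded transcripts per slide, with a quality score, position, nucleus mark and cell of each transcript, and a table of cells with counts of transcripts. The deposited counts per cell were raw, and positions were in µm. Segmentation settings and software versions are not given in the sources used here, and no replicates were pooled by the authors.

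For each cell, transcripts reaching a score of 20 were counted. The recomputed total was equal to the deposited count in 100% of cells. Cells were joined into sections within 100 µm (200 µm for wounds), and components of at least 2000 cells gave 17 sections. Section conditions came from position. Of 515791 cells, 426404 with at least 10 transcripts were kept. Sections held 136365 to 5581930 transcripts. No doublet caller was run on these segmented cells, and 25 cell identifiers occurred on more than 1 slide.

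Kept cells were clustered on 311 genes, without Wnt, pathway and Pitx1 genes, with 40 components and 45 clusters (k-means; scikit-learn 1.9.0). Clusters were named from fixed markers by a rule set after clusters were seen, and 4.63% of kept cells stayed unnamed. A kind entered a section with at least 50 cells.

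Counts summed per section and kind were tested across all panel genes by the quasi-likelihood test of edgeR 4.0.16 under R 4.3.3 (TMM factors, filterByExpr, Benjamini-Hochberg threshold 0.05), with slide as covariate for PITX1+ against Control and section as block between kinds. SE is the log2 difference divided by the square root of F. DESeq2 1.42.0 was an alternative. Distances were tested with two-sided exact sign-flip permutation tests (numpy 2.4.6). Fits were tested on simulated data. Poisson intervals are exact at 95%, and intervals cover counting error only.

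Named genes were the 5 ligands, Pitx1, 10 pathway genes and, for each ligand, the 3 panel genes most like it, 1 of which is not reported here. Members and lists were chosen with earlier results of these data known. The comparisons within basal-like cells, of cornifying-like, anagen hair-like and buccal fibroblast-like cells with basal-like cells, and the fits by slide, without the female slide or without follicle kinds were chosen after seeing the data.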

Additional observations from a re-analysis of the deposited data

Results flagged for a closer look

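Wnt7a in fibroblast-like cells of buccal section 3 was 36.1 CPM, where the other 6 buccal sections had 0 to 10.4 CPM, and this gap made it stand apart from its group. The value is a single transcript in 440 cells. Among 50 groups of sections looked at in this way 1 section stood apart, and chance gives about 1 in 20 groups.

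The change of Pitx1 between PITX1+ and Control keratinocyte-like cells was larger on the male than on the female slide by 5.28 on the log2 scale (edgeR adjusted p = 0.023 for the interaction). Pitx1 was 1069 and 868 CPM in PITX1+ sections and 13.9 CPM in the Control section of the male slide, and 42.0 and 78.8 CPM in PITX1+ sections and 58.9 and 50 CPM in the Control sections of the female slide.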

How the results depend on the processing

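Of 1029 alternatives tried for 62 results on the ligands, 922 kept direction and side of the threshold, 56 lost the call, 20 gained it and 31 reversed. The Wnt4 excess of buccal over skin epithelium and the lower Wnt10a and Wnt16 above the buccal basal layer kept their calls with library sizes, DESeq2 and every quality, depth and cluster setting tried. Wnt7a rested on 86 transcripts in buccal cells and Wnt10a on 268 in Control skin. The cause of each change below was not tested. No paired analysis was possible because section numbers only name positions on a slide and do not tie sections of different conditions.

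Counts of genes called moved as follows. In keratinocyte-like cells of PITX1+ against Control (108) DESeq2 gave 186, no slide covariate 34, no follicle kinds 40, and leaving out single sections 33 to 125. In fibroblast-like cells (19) DESeq2 gave 47, any quality score 7, 30 clusters 38, 60 clusters 45, no slide covariate 0, each slide alone 41, and leaving out single sections 5 to 36. Buccal against Control fibroblast-like cells (98) gave 156 with DESeq2, 61 without the female slide and 51 to 157 without single sections. The interaction (15) gave 40 with DESeq2, 8 with any quality score and 0 to 41 without single sections. Basal-like cells of PITX1+ against Control (7) gave 0 with library sizes, no slide covariate or the male slide only, 67 with DESeq2, 1 with any quality score, 4 with cells of at least 20 transcripts, 40 with 30 clusters, 101 on the female slide and 0 to 82 without single sections. Skin suprabasal-like against basal-like cells (155) gave 91 with no section block, skin cornifying-like cells (142) gave 94 in PITX1+ sections only, and anagen hair-like cells (106) gave 56 with 60 clusters and 63 to 100 without single sections.

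Library sizes moved the share of called genes that were higher from 78.9 to 90% (fibroblast-like, PITX1+), 44.9 to 63.8% (fibroblast-like, buccal), 45.2 to 21.0% (skin suprabasal-like), 43.0 to 21.3% (skin cornifying-like), 26.7 to 62.5% (interaction) and 50 to 64.3% (anagen hair-like).

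Directions reversed, in log2 differences, as follows. For PITX1+ against Control keratinocyte-like cells Wnt10a (-0.09) was 0.13 with no slide covariate, 0.66 on the male slide and -0.38 to 0.09243 without single sections. For buccal against Control, library sizes gave -0.09139 for Wnt10a and -0.38 for Wnt16, any quality score gave 0.17 for Dkk2, and no female slide 0.02242 for Ccn4. Against PITX1+, Wnt5a was 1.09 without follicle kinds, Wnt10a -0.15 with library sizes and Dkk2 0.18 with any quality score. In fibroblast-like cells of PITX1+ skin Wnt4 was 0.0042 at 20 transcripts and 0.0093 with 30 clusters, and Wnt5a -0.38 on the female slide and -0.35 to 0.61 without single sections. In buccal fibroblast-like cells Wnt4 was 1.18 without the female slide and -0.75 to 0.057 without single sections, and in the other direction it was called over the nucleus only (-2.84, edgeR adjusted p = 0.0164). In buccal suprabasal-like cells library sizes gave -0.20 for Wnt4 and -0.15 for Fzd3, and in cornifying-like cells -1.11 for Wnt4 and -0.29 for Wnt5a, with Wnt4 at -0.24 over the nucleus only. In buccal against Control basal-like cells Fzd1 was -1.57 with 30 clusters and -0.14 without the female slide, and Ccn4 4.495 without the female slide. In skin suprabasal-like cells Wnt4 was 0.26 with 60 clusters, and Wnt7a (-0.01) was 0.18 with DESeq2, 0.025 without a gene filter, 0.11 at any quality, 0.12 over the nucleus, 0.042 with 60 clusters and 0.034 with no block. Skin cornifying-like Wnt5a was 0.29 with 30 clusters, and anagen hair-like Lgr5 -2.51. In the interaction Wnt7a was -0.75 at any quality and -0.075 to 0.26 without single sections, and Wnt16 0.043 with library sizes. In basal-like cells of PITX1+ skin Wnt5a was -0.00059 to 0.40 without single sections and Wnt16 0.16 on the male slide.

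The log2 ratio of buccal to Control basal-like means per cell was 3.44 for Wnt4, 0.55 for Wnt5a, -5.03 for Wnt7a and 2.45 for Wnt10a. Wnt4 minus Wnt5a distance was -4.78 µm to fibroblast-like cells only, and Wnt10a minus Wnt16 was -1.48 µm with 60 clusters, where it passed (6 of 6 sections, exact permutation p = 0.03125). With 10 µm bins the first bin over all cells was 0.59 for Wnt4, 0.50 for Wnt5a, 2.23 for Wnt10a and 2.23 for Wnt16.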

Other observations

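In day 4 wounds a share of the Wnt7a and Wnt16 transcripts lay in cells that no marker list named. Unnamed cells were 4.96% of the Control wound's kept cells and 4.32% of those of the PITX1+ wounds. They held 35.1% and 39.0% of Wnt7a and 25.05% and 34.1% of Wnt16 transcripts there. The PITX1+ wounds differed, with 60.5% of Wnt7a and 51.1% of Wnt16 in unnamed cells of wound 1 and 13.9% and 10.1% in those of wound 2.

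Dermal papilla-like cells, the mesenchymal cells at the base of the follicle, had Wnt5a at 1409 to 4218 CPM in PITX1+ sections and 716 to 2703 CPM in Control sections, with overlap. Bulge-like cells of the 2 PITX1+ wounds had Wnt10a at 685 and 739 CPM, where the Control wound had 457 CPM and unwounded sections 217 to 398 CPM in skin. These cells lay in different proportions in 2 clusters. The clusters held 671 and 4031 cells of PITX1+ wounds, 616 and 478 of the Control wound, 6440 and 132 of Control and 3737 and 8776 of PITX1+ sections. In 4 buccal sections, 51 to 407 cells resembled bulge cells by their markers, and their Wnt16 was 10635, 2538, 206 and 10675 CPM.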
